A study of Mus musculus with 3 samples.

Results

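The genes of the proteasome were followed across 3 RNA-seq libraries of c2c12 cells. Members were chosen by symbol alone, as every gene whose symbol starts with Psma, Psmb, Psmc, Psmd, Psme, Psmf or Psmg and a digit, without the inducible genes Psmb8, Psmb9, Psmb10, Psme1 and Psme2. This gave 45 of the 23238 symbols. Of these, 16 belong to the core particle (Psma and Psmb), 20 to the regulatory particle (Psmc and Psmd) and 7 to assembly factors, activators and an inhibitor (Psme, Psmf and Psmg). The remaining 2, Psmc3ip and Psme2b, match the pattern but encode no subunit of either particle, since Psmc3ip is a meiotic recombination factor and Psme2b is a copy of Psme2. They were accounted for and kept out of the comparison of the particles.

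c2c12 is an immortalised mouse myoblast line, and all 3 cultures were held in myogenic induction medium (DMEM with 2% horse serum) for 2 days before RNA was isolated. The substrates were tissue culture plates (TCP), a hydrogel of methacrylated gelatin (GelMA, 15%) and the same hydrogel containing 1% poly(sodium 4-styrenesulfonate), a sulfonated polymer used as a heparin mimic (GelMA-PSS). TCP and GelMA served as controls, and the comparison asked how the added polymer altered the transcriptome during myogenic induction. Each substrate has 1 library, so no difference below has a replicate check, no p-value was computed, and the intervals given cover counting error only.

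The proteasome degrades proteins that carry ubiquitin chains. Its core particle is a barrel of alpha and beta subunits whose catalytic beta subunits cut the substrate inside the barrel, and its regulatory particle is a base with an ATPase ring, which unfolds the substrate, and a lid, which removes the ubiquitin. In skeletal muscle the ubiquitin-proteasome system is a main route by which myofibrillar proteins are broken down during atrophy, and it also removes regulatory proteins as myoblasts differentiate.

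Promoter sequences from RefSeq (GRCm38.p6) matched 37 of the 45 symbols, all but Psma8, Psmb1, Psmb2, Psmb7, Psmc3, Psmd3, Psmd7 and Psmg2. Those of 5 genes on which the comparison of the particles turns are shown as the 250 bases before the RefSeq start, 5′ to 3′ on the strand of the gene. They are the core genes with the highest and the lowest ratio (Psma7, chr2:180042465-180042714, minus strand, and Psmb5, chr14:54617996-54618245, minus strand), a further catalytic subunit (Psmb6, chr11:70525107-70525356, plus strand), and the regulatory particle genes with the highest and the lowest ratio (Psmd8, chr7:29180674-29180923, minus strand, and Psmd1, chr1:86064369-86064618, plus strand). Capitals mark a match to CCAAT (in Psma7) or to TGACNNNGC (in Psmb5 and Psmb6), searched on both strands. The GENCODE gene models used elsewhere begin within the stretch shown for Psmd1 (at 86064387), Psmb5 (at 54618022) and Psmd8 (at 29180701). Part of these stretches, and most of that of Psmd1, thus lies inside the GENCODE model.
Psma7: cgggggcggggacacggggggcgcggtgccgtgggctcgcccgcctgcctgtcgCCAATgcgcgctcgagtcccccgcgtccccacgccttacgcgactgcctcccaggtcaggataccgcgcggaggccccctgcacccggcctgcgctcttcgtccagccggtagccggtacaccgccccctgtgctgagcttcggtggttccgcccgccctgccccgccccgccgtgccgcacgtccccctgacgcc
Psmb5: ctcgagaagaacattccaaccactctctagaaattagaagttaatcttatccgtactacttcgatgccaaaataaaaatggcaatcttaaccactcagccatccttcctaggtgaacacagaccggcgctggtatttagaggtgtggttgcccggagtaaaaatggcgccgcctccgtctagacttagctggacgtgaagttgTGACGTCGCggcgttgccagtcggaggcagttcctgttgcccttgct
Psmb6: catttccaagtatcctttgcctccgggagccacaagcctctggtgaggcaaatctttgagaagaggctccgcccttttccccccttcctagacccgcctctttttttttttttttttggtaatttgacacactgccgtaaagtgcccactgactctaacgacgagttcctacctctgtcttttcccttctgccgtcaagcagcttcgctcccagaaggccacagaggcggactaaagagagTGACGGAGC
Psmd8: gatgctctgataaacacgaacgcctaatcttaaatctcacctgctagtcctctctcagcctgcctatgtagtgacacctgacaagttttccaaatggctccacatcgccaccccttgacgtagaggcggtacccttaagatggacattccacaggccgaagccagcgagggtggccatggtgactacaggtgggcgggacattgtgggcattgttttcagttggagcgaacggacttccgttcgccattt
Psmd1: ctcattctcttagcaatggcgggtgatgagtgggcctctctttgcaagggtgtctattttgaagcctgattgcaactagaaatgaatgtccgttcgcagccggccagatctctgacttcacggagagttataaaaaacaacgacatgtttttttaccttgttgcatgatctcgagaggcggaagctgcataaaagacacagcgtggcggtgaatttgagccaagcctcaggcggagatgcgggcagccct

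CCAAT is the letter pattern of the NF-Y box, and TGACNNNGC that of the antioxidant response element, the kind of site bound by Nfe2l1, a transcription factor that induces proteasome genes. In windows of 300 bases that start 250 bases before the gene start, TGACNNNGC was found in 2 of 12 core genes (Psmb5, at position -47, and Psmb6, at position -9) and in 3 of 17 regulatory particle genes, against 3781 of the 27025 genes with a promoter. CCAAT was found in 7 of 12 core genes and 5 of 17 regulatory particle genes, against 11096 of the 27025. In the sequences shown no match of one pattern overlapped a match of the other. These are matches of letters and not sites of binding, and a missing match says only that the letters are not in this window.

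Library totals were 87071144 to 192171443 counts, with GelMA-PSS the deepest. Levels are library-scaled counts (CPM) with TMM scaling factors, and the ratios are on the log2(CPM + 1) scale. A ratio to the mean of the controls, or to the controls together, is the average of the log2 ratios to GelMA and to TCP. Of the 45 symbols, 43 passed the filter of a CPM of 1 in at least 1 library, as did 13169 genes in all. All 6 myoblast markers examined passed that filter, while markers of leukocytes, endothelium and epithelium (Ptprc, Pecam1, Cdh5 and Epcam) did not. The counting error of a log2 ratio between libraries (95% half-width) was 0.014 to 0.068 over the core and regulatory particle genes, and would be larger had each fragment been counted by both of its reads, a point the sources used here do not give.

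Every core particle gene above the filter had its highest level in GelMA-PSS, whereas the regulatory particle was divided. No member reached 2-fold against both controls in either direction, where 1.37% of all genes tested were higher and 1.16% lower by that much. At 1.5-fold, 5 members exceeded both controls (Psma3, Psma6, Psma7, Psmb1 and Psmg4), 4 of them core genes, against 8.08% of all genes, and 0 were lower, against 7.18%. After either correction for gene length and GC content, 0 members remained past 1.5-fold against both controls. Against GelMA alone 11 members were higher by 1.5-fold, beside 11.0% of all genes, and against TCP alone 6, beside 13.2%. By any size, 14 of 14 core genes and 13 of 20 regulatory particle genes exceeded both controls, against 45.3% of all genes. Without the assembly chaperones Psmd5, Psmd9 and Psmd10 the regulatory particle count was 10 of 17. Among all members tested the count was 34 of 43. The medians of the log2 ratio to the mean of the controls were 0.54 for the core and 0.22 for the regulatory particle, beside 0.03 for all genes tested. In bulk RNA, a change in the share of cells of one kind and a change in RNA per cell cannot be told apart.

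**Figure D1:**
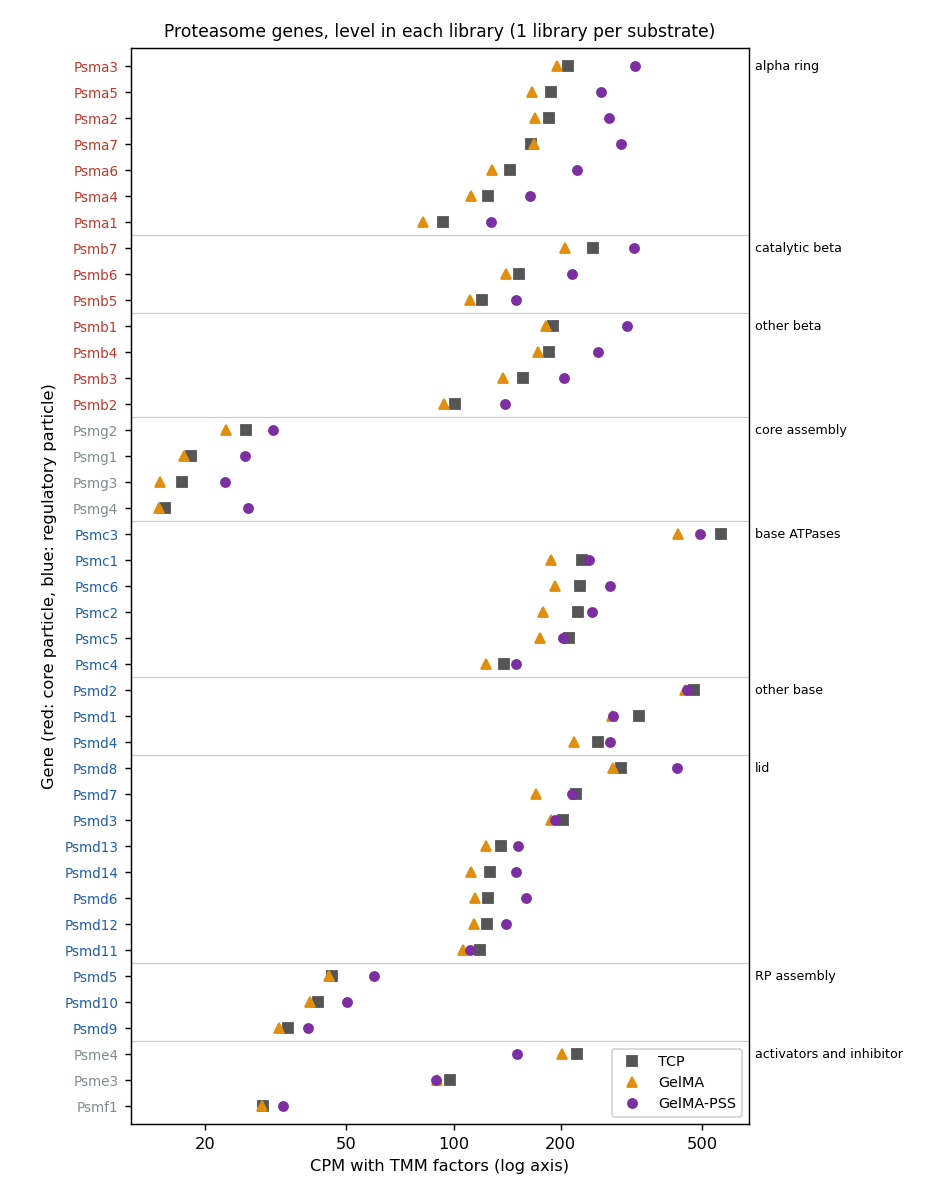
Levels of the proteasome genes above the filter in the 3 libraries, with CPM (TMM factors) on a log axis, 1 row per gene grouped by role, and 1 marker per library (square TCP, triangle GelMA, circle GelMA-PSS). The GelMA-PSS marker lies to the right of both controls in all 14 core genes and in 13 of 20 regulatory particle genes, and to the left of both in Psme3 and Psme4.

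The alpha subunits form the outer rings of the core particle and gate entry to it. Psma7 (GRCm38 chr2:180036374-180042433, minus strand) had the largest ratio of the ring, with 165 CPM in TCP (95% Wilson interval 163 to 167), 168 in GelMA (165 to 171) and 295 in GelMA-PSS (293 to 298). The controls lay close together, and GelMA-PSS was above them by 0.81 (GelMA) and 0.84 (TCP). Psma4 had the smallest ratio of the ring, with 125 CPM in TCP, 112 in GelMA and 164 in GelMA-PSS, so that GelMA-PSS was above GelMA by 0.55 and above TCP by 0.39. Between them, Psma6 was at 144, 128 and 223 CPM and Psma3 at 209, 196 and 324 CPM in TCP, GelMA and GelMA-PSS. All 7 alpha subunits above the filter had their highest level in GelMA-PSS, with a median log2 ratio to the controls of 0.62. Psma8, the alpha subunit of testis proteasomes, had 0 counts in TCP, 1 in GelMA and 0 in GelMA-PSS, where 3 counts correspond to 0.0246, 0.0330 and 0.0166 CPM.

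The catalytic subunits are Psmb5 (chymotrypsin-like activity), Psmb6 (caspase-like) and Psmb7 (trypsin-like). Psmb5 was at 120 CPM in TCP (118 to 122), 111 in GelMA (109 to 114) and 150 in GelMA-PSS (148 to 152), the smallest ratio of all core genes at 0.37. Psmb6 was at 153, 140 and 215 CPM and Psmb7 at 247, 205 and 321 CPM in the same order. All of them were thus highest in GelMA-PSS and lowest in GelMA. Their log2 ratios to GelMA were 0.43, 0.61 and 0.64, and those to TCP 0.32, 0.49 and 0.38. Processed pseudogenes of these genes exist, and reads that match both could have been divided in a way the sources used here do not give.

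Among the structural beta subunits Psmb1 had the largest ratio, with 190 CPM in TCP, 182 in GelMA and 307 in GelMA-PSS, and Psmb3 the smallest, with 157, 138 and 204 CPM. GelMA-PSS was above GelMA by 0.75 in Psmb1 and 0.57 in Psmb3, and above TCP by 0.69 and 0.38. Psmb11, a beta subunit of thymus proteasomes and not a structural one, stayed under the filter in every library, at 0.509, 0.550 and 0.392 CPM.

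The 6 ATPases of the base (Psmc1 to Psmc6) had smaller ratios than the core, with a median of 0.20. Psmc6 had the largest, with 226 CPM in TCP, 192 in GelMA and 275 in GelMA-PSS. Psmc3 (GRCm38 chr2:91054009-91066369, plus strand) had the smallest, with 564 CPM in TCP (559 to 568), 426 in GelMA (422 to 430) and 492 in GelMA-PSS (489 to 495). GelMA-PSS therefore lay between the controls in Psmc3, 0.21 above GelMA and 0.20 below TCP. In 4 of the 6 ATPases GelMA-PSS was above both controls, and in the other 2, Psmc3 and Psmc5, it was between them.

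The non-ATPase part of the base was near the controls. Psmd1, a large scaffold subunit, was at 332 CPM in TCP (329 to 335), 278 in GelMA (275 to 282) and 281 in GelMA-PSS (279 to 283), so that the hydrogels did not differ beyond their counting intervals and both were below TCP. Psmd2, the second scaffold subunit, was at 473, 447 and 453 CPM. Psmd4, a receptor for ubiquitin chains, was at 255, 218 and 275 CPM, the one gene of these 3 that was highest in GelMA-PSS.

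Within the regulatory particle the lid spanned the widest range of ratios. Psmd8 was at 296 CPM in TCP (293 to 299), 281 in GelMA (278 to 285) and 424 in GelMA-PSS (421 to 427), 0.59 above GelMA and 0.52 above TCP. Among the Psmc and Psmd genes it had the largest ratio, 0.55, which lies above the core median. Shfm1 (Sem1), a lid subunit under another symbol, had a larger ratio and is given below. At the other end, Psmd3 was at 203, 188 and 193 CPM and lay between the controls. Of the 8 lid genes 5 exceeded both controls, and Psmd3, Psmd7 and Psmd11 were between them.

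Psmd5, Psmd9 and Psmd10 are chaperones that help to assemble the base and leave the finished particle. Psmd5 was at 45.5, 44.6 and 59.8 CPM in TCP, GelMA and GelMA-PSS, and Psmd9 at 34.2, 32.4 and 38.9 CPM. All 3 were highest in GelMA-PSS, with a median log2 ratio of 0.30. The chaperones of the core particle, Psmg1 to Psmg4, had a median of 0.50 and were likewise highest in GelMA-PSS in 4 of 4. Psmg4 had the largest ratio, with 15.5 CPM in TCP (14.8 to 16.2), 14.9 in GelMA (14.1 to 15.7) and 26.4 in GelMA-PSS (25.7 to 27.2), and Psmg2 the smallest, with 26.1, 23.0 and 31.2 CPM. With a smaller log2 ratio of 0.73, Psmg4 came after Psma7 (0.81) as the member nearest to 2-fold against both controls.

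Before correction for gene length, Psme4 went the other way from the subunits. With correction its ratio to the mean of the controls was -0.18 by transcript length and 0.05 by coding length. This gene, which encodes the activator PA200 (GRCm38 chr11:30771726-30880361, plus strand), was at 222 CPM in TCP (219 to 224), 202 in GelMA (199 to 205) and 151 in GelMA-PSS (149 to 152), 0.42 below GelMA and 0.55 below TCP. Psme3, the nuclear activator, was at 97.9, 89.8 and 89.5 CPM, with the hydrogels indistinguishable by counting error. Among the 43 members above the filter, and with TMM factors, these 2 were the only ones below both controls, against 39.3% of all genes. Psmf1, an inhibitor of the core particle, was at 29.1, 29.0 and 33.1 CPM.

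**Figure D2:**
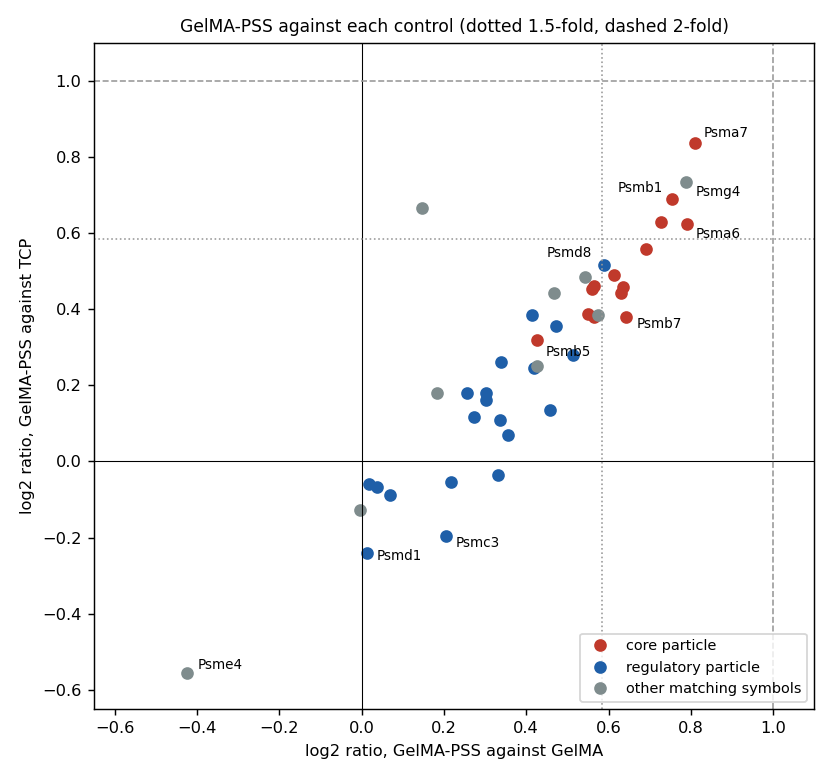
Log2 ratio of GelMA-PSS to TCP against log2 ratio of GelMA-PSS to GelMA for each proteasome gene above the filter, with core, regulatory particle and other members in separate colours. Both ratios share the GelMA-PSS library, so their agreement is not independent. All 14 core genes lie above 0 on both axes, and 7 regulatory particle genes lie below 0 on the TCP axis.

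Between the controls, proteasome genes were lower in GelMA than in TCP. The order was GelMA below TCP in 41 of 43 members, against 51.7% of all genes, with Psma7 and Psme2b the exceptions. Some of the 41 lay within counting error, among them Psmf1 (-0.005, half-width 0.073) and Psmd5 (-0.028, half-width 0.058). By 1.5-fold, 0 members were lower in GelMA than in TCP and 0 higher, beside 2.12% and 3.50% of all genes. The median log2 ratio of GelMA to TCP was -0.13 for the core and -0.16 for the regulatory particle, beside -0.01 for all genes tested, so the particles did not separate here as they did in GelMA-PSS. The order GelMA-PSS, TCP, GelMA from high to low held in 13 of 14 core genes and 13 of 20 regulatory particle genes, against 22.7% of all genes, and the other 7 regulatory particle genes followed the order TCP, GelMA-PSS, GelMA.

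As a share of all counts, the core genes took 0.230% in TCP, 0.215% in GelMA and 0.307% in GelMA-PSS, while the regulatory particle genes took 0.419%, 0.371% and 0.406%. The core share was highest in GelMA-PSS, and the regulatory particle share was highest in TCP. The latter turned with the scaling, since with TMM factors the regulatory particle genes summed to 4121 CPM in TCP, 3554 in GelMA and 4310 in GelMA-PSS. The ratio of core counts to regulatory particle counts was 0.549 in TCP, 0.581 in GelMA and 0.756 in GelMA-PSS. Per kilobase of coding sequence the median core gene stood at 228, 221 and 327 CPM per kilobase. The median regulatory particle gene, without the assembly chaperones, stood at 157, 125 and 166. This scale leaves out untranslated parts, whose length differs between genes. Psma3 has a transcript of 2846 bases with 765 of coding sequence, and Psmb6 one of 798 with 714. Levels per kilobase of transcript were not computed, so these levels and spreads hold for coding length only. Within a library the core genes lay within 2.46- to 2.65-fold of each other on this scale and the 17 regulatory particle genes within 3.78- to 4.60-fold. The chaperones of the regulatory particle were lower, with medians of 51.4, 48.7 and 58.4 CPM per kilobase.

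The ranges of the particles overlapped. The log2 ratio to the mean of the controls ran from 0.37 to 0.82 in the core and from -0.11 to 0.55 in the regulatory particle. All 14 core genes were above the regulatory particle median, and 5 of them were above its highest gene. Psmd8 was the 1 regulatory particle gene above the core median. These counts cover Psmc and Psmd symbols only. The lid subunit Shfm1 (Sem1), which has another symbol, had a ratio of 0.93, above every core gene. The difference of the medians was 0.32, and it was 0.32 against GelMA alone and 0.33 against TCP alone. These values are not independent, since the ratio to the mean of the controls averages the other ratios.

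Gene length moved with these ratios across the transcriptome. Over 13054 genes with a length, Spearman's rho between transcript length and the log2 ratio of GelMA-PSS to the controls was -0.59, and the median ratio was 0.55 in the shortest 10% of genes and -0.54 in the longest 10%. Core genes are short, with a median transcript of 1162.5 bases and a median coding sequence of 741 bases, against 1802 and 1236 bases for the regulatory particle and 2912 and 1398 bases for all genes tested. Within the core the correlation with transcript length was 0.36 (14 genes) and within the regulatory particle -0.31 (20 genes). With coding length these were -0.32 and -0.47, so the sign within the core depended on the measure of length. All are descriptions of genes that share their libraries.

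**Figure D3:**
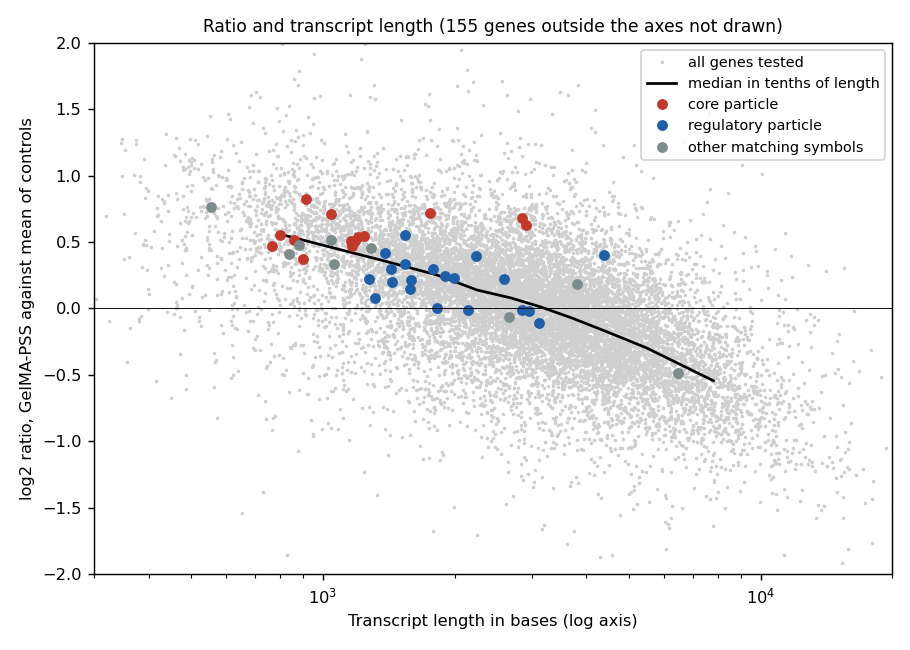
Log2 ratio of GelMA-PSS to the mean of the controls against transcript length in bases (log axis) for all genes with a length in grey and for the proteasome genes in colour, with a black line for the median along length and 155 genes outside the axes. Ratios decline with length over all genes (rho -0.59), and the core genes (median 1162.5 bases) lie mostly to the left of the regulatory particle genes (median 1802 bases).

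When the trend with transcript length and GC content was subtracted, the medians became 0.086 for the core and -0.079 for the regulatory particle, a difference of 0.17. On this scale 8 of 14 core genes and 5 of 20 regulatory particle genes exceeded both controls, against 40.9% of all genes. Below both controls were 3 of 14 core genes and 12 of 20 regulatory particle genes, against 5314 of 13054 genes. Without the assembly chaperones 3 of 17 regulatory particle genes were above both controls and 11 below both. Most of the height of the core over the transcriptome was thus no longer there. With the length of the coding sequence in place of the transcript, an alternative chosen after seeing the data, the medians were 0.28 and 0.12. The difference was 0.16. Above both controls were 14 of 14 core genes and 12 of 20 regulatory particle genes, against 42.0% of all genes. Below both were 0 core genes and 3 regulatory particle genes, against 4856 of 12336 genes. Without the assembly chaperones 11 of 17 regulatory particle genes were above both and 1 below both. In both versions all 14 core genes stayed above the regulatory particle median, while 3 regulatory particle genes were above the core median. The largest corrected ratios were those of Psma3 (0.49) and Psmd5 (0.49) by transcript length and of Psma7 (0.55) by coding length. Psme4, whose transcript of 6491 bases is the longest of the members, went from -0.49 to -0.18 by transcript length and to 0.05 by coding length. The part of length in these differences was not tested.

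**Figure D4:**
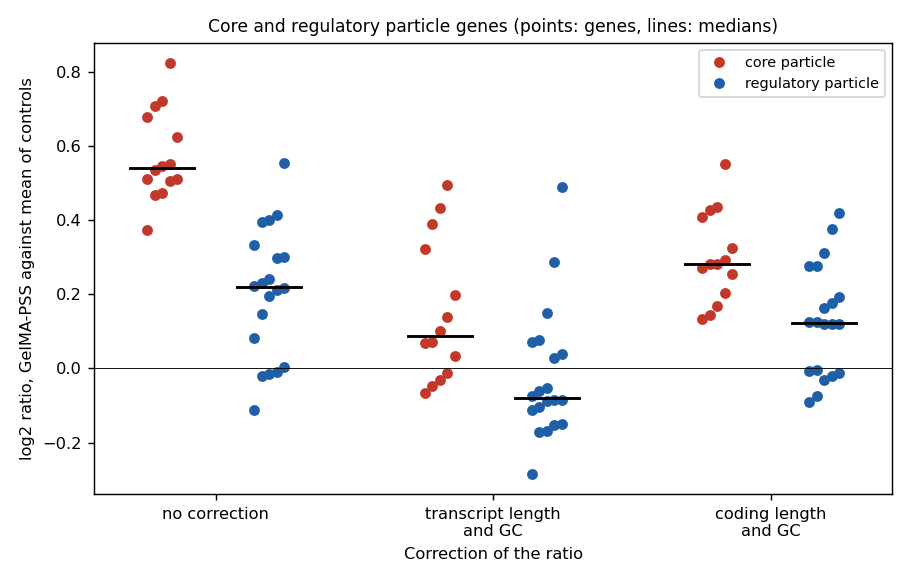
Log2 ratio of GelMA-PSS to the mean of the controls for each core and regulatory particle gene, uncorrected, after correction for transcript length and GC content, and after correction for coding length and GC content, with a line at each median. Core medians are 0.54, 0.086 and 0.28 and regulatory particle medians 0.22, -0.079 and 0.12.

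The choice of scaling changed the counts of the regulatory particle and not those of the core. With plain CPM in place of TMM factors the median ratio of all genes tested moved from 0.03 to -0.08. The 14 core genes exceeded both controls in GelMA-PSS under TMM, plain CPM and median-of-ratios scaling. For the regulatory particle the count was 13 under TMM and median-of-ratios and 12 under plain CPM, where Psmc1 was also below TCP and where 4 genes (Psmd1, Psmd2, Psmd3 and Psmd11) were lower than both controls, against 0 under the other scalings.

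Genes that supply ubiquitin or work with the proteasome under other names differed among themselves. Of 6 genes for ubiquitin and its E1 enzymes, 3 exceeded both controls in GelMA-PSS and 3 were below both, where 45.3% and 39.3% of all genes tested did so. Rps27a, which encodes ubiquitin fused to a ribosomal protein, was at 510 CPM in TCP, 541 in GelMA and 1166 in GelMA-PSS, and was the one partner gene past 2-fold against both controls (1.11 above GelMA and 1.19 above TCP). This call ended under both corrections, with 0.49 and 0.68 by transcript length (791 bases) and 0.63 and 0.80 by coding length. Ubb, which encodes ubiquitin, was highest in GelMA-PSS too, at 108 CPM in TCP, 100.4 in GelMA and 147 in GelMA-PSS.

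Of 9 proteasome-bound proteins tested, 5 exceeded both controls and 2 were below both, beside 45.3% and 39.3% of all genes, with a median ratio of 0.26. Shfm1 (Sem1), a very small lid subunit, was at 111, 98.2 and 199 CPM in TCP, GelMA and GelMA-PSS. Its ratio to the mean of the controls was 0.93. After correction with GC content it was 0.43 by transcript length and 0.21 by coding length. Pomp, the maturation factor of the core particle, was at 126, 104 and 164 CPM, and Usp14, a deubiquitinase, at 127, 112 and 144 CPM. These 3 were highest in GelMA-PSS. Adrm1, a ubiquitin receptor, was between the controls, at 160, 138 and 147 CPM. Of 11 shuttle factors and members of the Vcp complex, 3 were higher and 6 lower than both controls, beside the same 45.3% and 39.3%, and Vcp itself, an ATPase that extracts ubiquitinated proteins, was at 905, 747 and 691 CPM.

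Of 7 regulators of proteasome gene transcription tested, 3 exceeded both controls and 4 were below both, and the median ratio was -0.46. The share above both is near that of all genes (45.3%, with 39.3% below both). Nfe2l1 was at 620 CPM in TCP, 494 in GelMA and 360 in GelMA-PSS, 0.45 below GelMA and 0.78 below TCP, and its ratio was -0.62 before and -0.68 after correction for transcript length and GC content. Ddi2, the protease that activates the Nfe2l1 protein, was at 48.9, 57.6 and 35.8 CPM. Both were lowest in GelMA-PSS. Others of the list were highest there, among them Nfe2l2, a related factor, at 114, 116 and 142 CPM and Maff, a partner of these factors, at 24.6, 28.6 and 39.8 CPM. After correction for coding length and GC content, the ratio of Maff to GelMA was -0.007. Mafg and Mafk, the other Maf genes of the list, were lowest in GelMA-PSS, at 21.3, 24.9 and 16.4 CPM and at 34.7, 25.6 and 18.8 CPM. Processing of the Nfe2l1 protein was not measured.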

How the data were processed

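RNA was isolated from c2c12 cells on TCP, GelMA and GelMA-PSS, with 1 library per substrate assigned from the sample labels. The values deposited by the authors are raw counts, 1 table of gene symbols per library. The submitters' processing notes name TopHat, edgeR, mm10 and hg19 without their roles, and the counting tool and annotation are not given in the sources used here. The labels and the methods name different library kits. Lines sharing a symbol were summed (23282 lines, 23238 symbols).

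CPM used TMM factors (1.02 in TCP, 1.04 in GelMA, 0.943 in GelMA-PSS, from edgeR 4.0.16, R 4.3.3). The filter kept genes that reached a CPM of 1 in any library, a pseudocount of 1 was added, and a call needed 2-fold against each control, in 1 direction. Intervals are Wilson intervals at 95% (scipy 1.17.1) and cover counting error only. Lengths, GC content and gene models came from GENCODE M21 (GRCm38), and trends with log length and then GC content were removed by loess (span 0.3, statsmodels 0.14.6). The calculation of the ratios was checked on simulated counts scaled by library totals, without TMM factors. The simulation held counting error only, so it says nothing on variation between cultures.

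The members and lists were chosen with earlier results of these data known. Named were members past 2-fold against both controls, the highest and lowest of each role, Psmb5, Psmb6, Psmb7, members under the filter, those nearest to the threshold, partner genes past 2-fold and 9 fixed partners, apart from a result that was left out of the text. Other genes were named after their values were seen. Alternatives changed the scaling, the filter, the pseudocount, the threshold, the control or the correction.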

Additional observations from a re-analysis of the deposited data

How the results depend on the processing

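Of 41 values recomputed under 12 alternatives, 28 stayed within the tolerance (0.0261 on the log2 scale for medians, 1.5 times for counts), 12 moved and 1 reversed. The values were the 2-fold count of members, the medians of the core and of the regulatory particle, and the difference of these medians. Some of the 28 are the 2-fold count staying at 0, where a tolerance of 1.5 times has no meaning. At 1.5-fold instead of 2-fold the count of members higher than both controls was 5. Plain CPM gave medians of 0.41 for the core and 0.094 for the regulatory particle. Against GelMA alone they were 0.63 and 0.32, and against TCP alone 0.46 and 0.13. Correction for transcript length and GC content gave 0.086 for the core, -0.079 for the regulatory particle, which reversed, and a difference of 0.17. Correction for coding length and GC content, chosen after seeing the data, gave 0.28, 0.12 and 0.16. The cause was not tested. No paired analysis was possible because each substrate has 1 library, and for the same reason no replicate could be left out. Psma8 and Psmb11 stayed under the filter with upper interval limits of at most 0.0623 and 0.725 CPM, so their low level and not depth kept them there.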

Other observations

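Of the inducible genes kept out of the members, Psme1 and Psme2, which encode the interferon-inducible activator, were at 44.8, 48.8 and 84.3 CPM and at 90.8, 96.2 and 165 CPM in TCP, GelMA and GelMA-PSS. Both were higher in GelMA-PSS than in either control by more than 1.5-fold, the opposite order to Psme4. These genes are short (1112 and 962 bases), and neither stayed past 1.5-fold against both controls after correction: against GelMA, Psme1 was at 0.35 by transcript and 0.50 by coding length, and Psme2 at 0.26 and 0.47. Psme4 went to -0.18 and 0.05 against the mean of the controls. Psmb10 was at 16.2, 14.1 and 17.2 CPM. Psmb8 had 3, 12 and 38 counts and Psmb9 3, 0 and 9 counts, both under the filter in every library.

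Other complexes of many subunits were examined beside the proteasome. Of 9 genes of the COP9 signalosome, a complex related to the lid, 8 exceeded both controls in GelMA-PSS and 0 were below both, with a median ratio of 0.38. Of 8 genes of the cytosolic chaperonin, 8 were higher, with a median of 0.34. Of all genes tested, 45.3% were above and 39.3% below both controls. After correction for transcript length and GC content these medians were 0.11 and 0.14, beside 0.086 for the proteasome core. Whether the complexes differ from each other was not tested.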
